A study of Mus musculus with 8 samples.

Results

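The genes described are 34 mouse genes of cholesterol and fatty acid synthesis, chosen by symbol from a list written for this work, and all 34 are among the 19129 genes tested. They fall into a sterol arm of 17 enzymes (7 from acetyl-CoA to farnesyl diphosphate, 10 from squalene to cholesterol), a fatty acid arm of 11 enzymes (3 that supply acetyl-CoA or NADPH, 2 that build the chain, 6 that desaturate or elongate it), 5 genes that control the pathway and 1 sterol carrier. RNA came from fresh pancreatic tumours grown as isografts in 8 mice, with 4 libraries labelled control and 4 labelled MEKi, the latter from mice given trametinib, which blocks the MEK kinases that activate ERK, for 7 days. What the control mice were given, the tumour line, the strain, age and sex of the mice and the site of grafting were not stated in the sources used here. Each library is 1 mouse by the study design, and a number after a label names its replicate (MEKi 4 is the library labelled MEKi, replicate 4).

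Cells make cholesterol from acetyl-CoA through mevalonate, squalene and lanosterol, and make fatty acids from the same acetyl-CoA through malonyl-CoA. Both arms are transcribed under the SREBP factors: SREBP2 (gene Srebf2) acts mostly on sterol genes and SREBP1 (gene Srebf1) mostly on lipogenic genes. SCAP carries the SREBP precursors out of the endoplasmic reticulum when sterols are low, and the INSIG proteins hold them back when sterols are high. SREBP sites in promoters often lie beside CCAAT boxes, which bind NF-Y, and GC boxes, which bind Sp1.

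Promoter windows are shown first because the members share a letter pattern that choosing them by name did not use. A window is the 250 bases before the annotated start (RefSeq, GRCm38.p6), and 27 of the 34 genes had 1 or more, a gene being counted where any of its windows held the letters. The letters CCAAT, on either strand, stood in the window of 13 of 14 sterol arm genes (92.9%), 4 of 8 fatty acid arm genes and 21 of all 27 (77.8%), against 39.5% of the 12832 tested genes with a window. Dhcr7 and Me1 were counted here only through a window whose 250 bases all lie inside the GENCODE gene. The letters GGGCGG, on either strand, stood in 13 of 14 sterol arm windows, 4 of 8 fatty acid arm windows and 22 of 27 in all (81.5%), against 57.9% of tested genes. The E-box CACGTG stood in 6 of 27 (22.2%), against 9.03% of tested genes. TCACNCCAC, a core of the sterol response element searched on both strands, stood in 1 of 27, that of Hmgcs1, against 1.31% of tested genes. A match is a description of letters and not a bound site. The 4 windows printed belong to the genes on which the results below turn: Hmgcs1 holds the only TCACNCCAC match, Cyp51 and Msmo1 lay farthest below the other libraries in MEKi 4, and Fasn is the fatty acid synthase. Capitals mark CCAAT on either strand (ATTGG on the strand shown) and, in Hmgcs1, TCACCCCAC, which begins 137 bases before the start. The 3 Hmgcs1 boxes begin 237, 176 and 45 bases before the start, the single Cyp51 box 29 bases before, the Msmo1 boxes 160, 96 and 55 bases before, and the Fasn boxes 90, 62 and 59 bases before, the last pair overlapping. These distances are from the RefSeq start. The GENCODE gene begins farther upstream for Cyp51 and Msmo1 and takes in 49 and 214 bases of their windows, so the boxes printed for these genes lie inside the GENCODE gene. The windows are chr13:119690101-119690350 (+) for Hmgcs1, chr5:4104698-4104947 (−) for Cyp51, chr8:64733579-64733828 (−) for Msmo1 and chr11:120824548-120824797 (−) for Fasn, each written 5′ to 3′ toward the gene.
Hmgcs1: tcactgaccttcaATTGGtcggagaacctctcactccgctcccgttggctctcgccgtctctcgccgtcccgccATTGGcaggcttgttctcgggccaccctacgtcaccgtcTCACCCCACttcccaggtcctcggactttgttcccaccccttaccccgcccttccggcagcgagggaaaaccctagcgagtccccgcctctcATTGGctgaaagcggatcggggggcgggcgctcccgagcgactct
Cyp51: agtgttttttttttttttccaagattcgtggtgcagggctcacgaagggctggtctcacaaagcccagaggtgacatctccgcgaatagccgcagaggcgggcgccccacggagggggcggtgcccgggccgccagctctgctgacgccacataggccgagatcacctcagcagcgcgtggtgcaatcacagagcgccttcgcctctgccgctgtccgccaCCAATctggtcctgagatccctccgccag
Msmo1: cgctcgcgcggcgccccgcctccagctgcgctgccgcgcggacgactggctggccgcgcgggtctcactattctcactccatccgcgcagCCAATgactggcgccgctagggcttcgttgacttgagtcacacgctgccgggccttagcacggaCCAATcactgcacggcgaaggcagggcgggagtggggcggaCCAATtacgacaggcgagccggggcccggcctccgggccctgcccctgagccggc
Fasn: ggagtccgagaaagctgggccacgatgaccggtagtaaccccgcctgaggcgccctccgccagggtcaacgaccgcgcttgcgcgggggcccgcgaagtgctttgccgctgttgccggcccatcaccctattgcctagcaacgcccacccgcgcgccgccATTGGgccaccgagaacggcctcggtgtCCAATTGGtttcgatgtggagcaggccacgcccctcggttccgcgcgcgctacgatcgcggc

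Depth ran from 20090101 to 38569550 reads in tested genes per library. Values below are the deposited variance-stabilised values on a log2 scale, on which 5.12 stands for 0 reads. Dusp6, a phosphatase gene induced by ERK signalling that checks the labels, had 12.19, 12.14, 9.31 and 9.24 in control 1 to 4 and 8.88, 12.12, 12.20 and 11.01 in MEKi 1 to 4. Libraries of both labels were thus high and low, the means being 10.72 ± 1.67 (SD, n = 4) and 11.05 ± 1.55 (SD, n = 4), so every comparison below is one of labels. The 8 other genes of a list of ERK output genes (Dusp4, Spry2, Spred1, Etv4, Etv5, Phlda1, Ier3 and Fosl1) likewise had their 4 lowest values in control 3, control 4, MEKi 1 and MEKi 4, and the list with Dusp6 averaged 10.72, 10.71, 9.38 and 9.17 in control 1 to 4 and 9.21, 10.85, 10.53 and 9.80 in MEKi 1 to 4. Some labels may therefore not match the treatment of the mouse, which was not tested, and MEKi minus control below means a difference between labels only. MEKi 4 stood apart from the rest: it held the lowest value of 21.6% of all genes and the highest of 23.2%, where no other library held more than 13.8% and 16.0%. Markers of pancreatic acinar cells averaged 14.68 and 16.23 in control 2 and control 3 and 5.71 to 11.02 elsewhere, and the part of acinar tissue in the results below was not tested beyond the covariate values given. Epithelial markers (6 of 6 measured, keratins, Epcam and Cdh1) averaged 13.80 in MEKi 4 and 14.37 to 14.64 in the other 7 libraries. MEKi 4 was lowest for 5 of the 6, with Epcam at 10.70 (12.66 to 13.10 elsewhere). It was highest for Cdh1, at 14.49 (14.14 to 14.32 elsewhere). Adipocyte markers (8 of 11 measured) averaged 7.41 to 7.86, and Adipoq, a defining one, lay between 5.12 and 6.34, with 29 reads in MEKi 1 and 0 to 8 in the others. Cfd, another, had 95 reads in MEKi 1, 38 in control 3, 0 in control 1, control 2 and MEKi 4 and at most 11 in the rest. Adipoq and Cfd were chosen after their values were seen.

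The 34 genes covered a wide range of levels per exon length (RPKM, reads divided by exon length and library depth, mean ± SD over 8 libraries). Scd2, a stearoyl-CoA desaturase, was highest at 153 ± 43.9. It was followed by Cyp51, the lanosterol demethylase, at 64.8 ± 27.5, by malic enzyme Me1 at 62.6, by ATP citrate lyase Acly at 59.9 and by the elongase Elovl5 at 49.9. Me1 and Acly lay within 1 SD of Cyp51. Srebf2, the desaturase gene Fads1, Fasn and the isomerase gene Ebp came next between 24.1 and 25.5. Lowest were Fdps, the farnesyl diphosphate synthase gene, at 1.30 ± 0.48, and Acss2, an acetyl-CoA synthetase gene, at 1.48. The length used is that of all annotated exons of a gene joined, 4208 bases for Fdps and 10163 for Acss2. Their longest protein-coding transcripts have 1382 and 2931 bases, so the rank of these genes depends on the length used. Levels of genes with near-identical copies are uncertain, since no source used here tells how the authors counted shared reads. Stretches of at least 100 bases with at least 95% identity to other genes covered 91.4% of the Fdps transcript, 65.6% of Acat2, 64.3% of Acaca, 60.1% of Me1 and 54.7% of Fdft1. Exons of genes on the opposite strand overlapped 18.3% of the Fdft1 exons (Ctsb), 13.2% of Scap, 12.1% of Hmgcs1 and 3.76% of Cyp51 (Akap9), and no source used here tells whether the counting used strand.

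**Figure D1:**
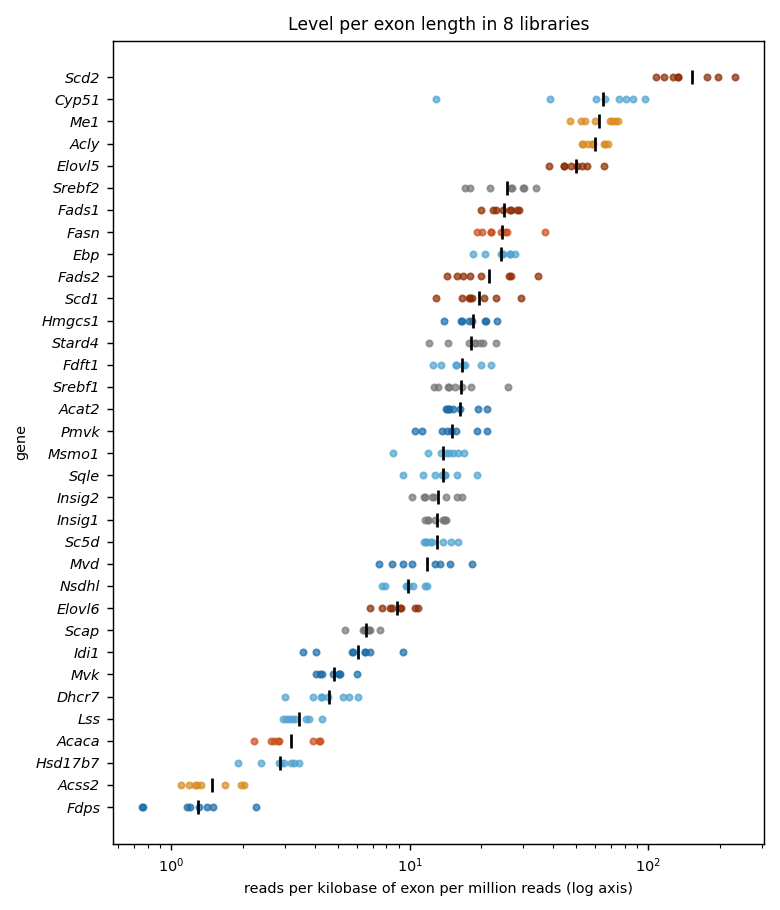
Levels of the 34 genes as RPKM on a log axis, 1 point per library and a bar at the mean of 8. RPKM is reads divided by the joined length of all annotated exons and by library depth. Scd2 is highest at 153 and Fdps lowest at 1.30, and Cyp51 has the widest spread among the 5 highest genes, with single libraries at 13.0 and 38.9.

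The labels did not separate any of the 34 genes. None was called by limma at an adjusted p under 0.05 (0 of 34), where 0.00523% of all genes were called, that is the 1 gene 9530002B09Rik (lower in MEKi, adjusted p = 0.0235, limma). None of the 34 had an unadjusted p under 0.05, against 1.77% of all genes, (0.465% higher in MEKi and 1.3% lower), and the smallest adjusted p among them was 0.9996 (limma). None had all 4 MEKi values above all 4 control values, against 0.565% of all genes, or all below, against 0.701%. The fitted difference, MEKi minus control, was above 0 for 10 genes and below 0 for 24, with a median of −0.05 on the log2 scale against 0.01 over all genes tested. Without MEKi 4 it was above 0 for 18 and below 0 for 16, with a median of 0.01. In bulk tumour RNA, fewer cells of a type and less RNA per cell cannot be told apart.

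**Figure D2:**
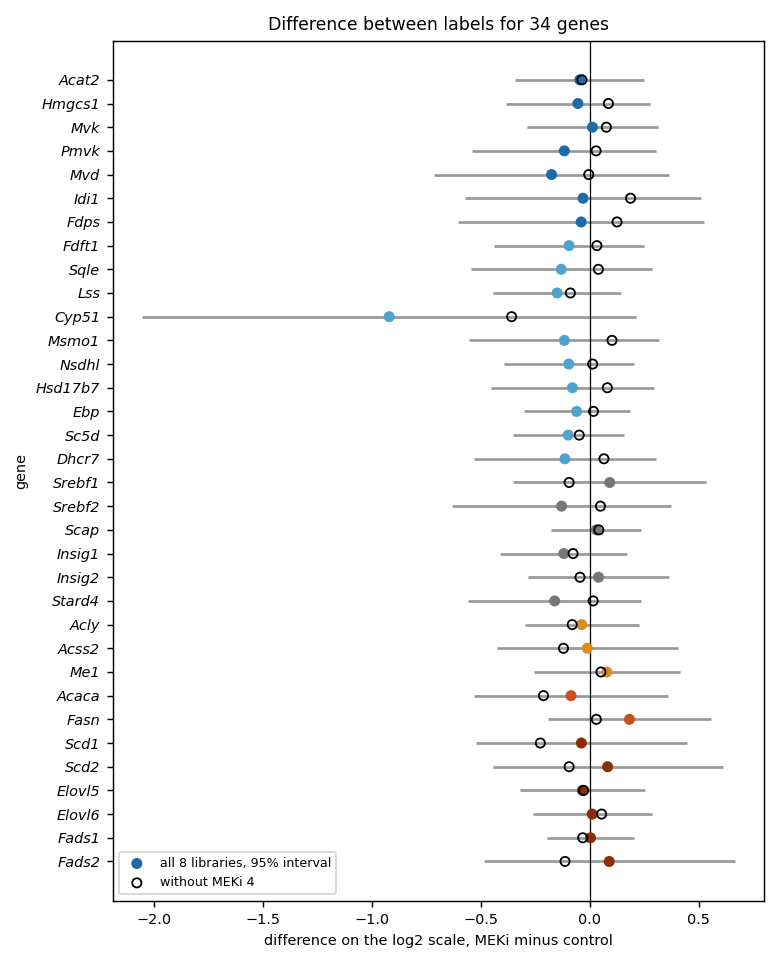
Difference of each gene between labels (MEKi minus control, log2 scale) with its 95% interval from limma over all 8 libraries (filled points, bars), and the same difference without MEKi 4 (open points). Each interval includes 0, and the Cyp51 point moves from −0.92 to −0.36 when MEKi 4 is left out.

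Among the genes that control the pathway, Srebf2 had 12.44, 12.72, 11.96 and 11.92 in control 1 to 4 and 12.23, 12.46, 12.23 and 11.59 in MEKi 1 to 4. Its lowest value was in MEKi 4 and its highest in control 2, and the groups overlapped (difference −0.13, SE 0.22, 95% interval −0.63 to 0.37). Srebf1 had 10.94, 11.27, 11.32 and 11.20 in the controls and 11.35, 11.09, 10.82 and 11.83 in the MEKi libraries. Here MEKi 4 was the highest and MEKi 3 the lowest, so both extremes carried the MEKi label (difference 0.09, SE 0.20, interval −0.35 to 0.54). MEKi 4 thus held the lowest Srebf2 value and the highest Srebf1 value of the 8.

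Insig1, itself a classical SREBP target, had 9.95, 10.29, 10.45 and 10.01 in the controls and 10.18, 9.99, 10.12 and 9.93 in the MEKi libraries. The highest value was in control 3 and the lowest in MEKi 4, with overlap throughout (difference −0.12, SE 0.13). Insig2, the second retention protein, had 10.38, 10.29, 10.17 and 10.15 in the controls and 10.04, 10.53, 10.04 and 10.54 in the MEKi libraries. Its MEKi values formed a high and a low pair that enclosed all 4 controls (difference 0.04). Scap varied least of the 34 genes, between 10.26 and 10.51, with a difference of 0.03 (SE 0.09). Stard4, which carries cholesterol between membranes, had 11.43, 11.59, 11.31 and 11.46 in the controls and 11.67, 11.44, 11.28 and 10.75 in the MEKi libraries. Its highest value was in MEKi 1 and its lowest in MEKi 4, the order also seen in most sterol enzymes (difference −0.16, SE 0.18, and 0.02 without MEKi 4).

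The sterol arm averaged 9.99, 10.17, 10.04 and 10.15 in control 1 to 4 and 10.37, 10.00, 9.95 and 9.49 in MEKi 1 to 4. The 4 controls lay close together (10.09 ± 0.09, SD, n = 4), while the MEKi libraries held both the highest and the lowest mean (9.95 ± 0.36, SD, n = 4). MEKi 4, where the sterol values were low, was also the library with the lowest epithelial score. It was lowest for 5 of the 6 epithelial markers and highest for Cdh1, and the part of epithelial content was not tested. The difference between labels, −0.14, was smaller than the spread of the MEKi libraries. MEKi 1 had the highest value of 16 of the 17 enzymes, Ebp (highest in control 2) being the exception. MEKi 4 had the lowest of 16, Acat2 (lowest in MEKi 3) being the exception. Of the 8 adipocyte markers measured, MEKi 1 was highest for 2, Adipoq and Cfd, chosen after their values were seen, and lowest for 0. Fabp4, of the same list, was 8.27 in MEKi 1, below control 1 at 9.97 and control 2 at 9.93. The part of adipocytes in the MEKi 1 values was not tested beyond a fit with the adipocyte score as a covariate, which gave a mean difference of −0.14. Of the 17 differences 16 were below 0, but without MEKi 4 12 were above 0 and 5 below, with a mean of 0.02. With the acinar marker score as a covariate the mean difference was −0.19.

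**Figure D3:**
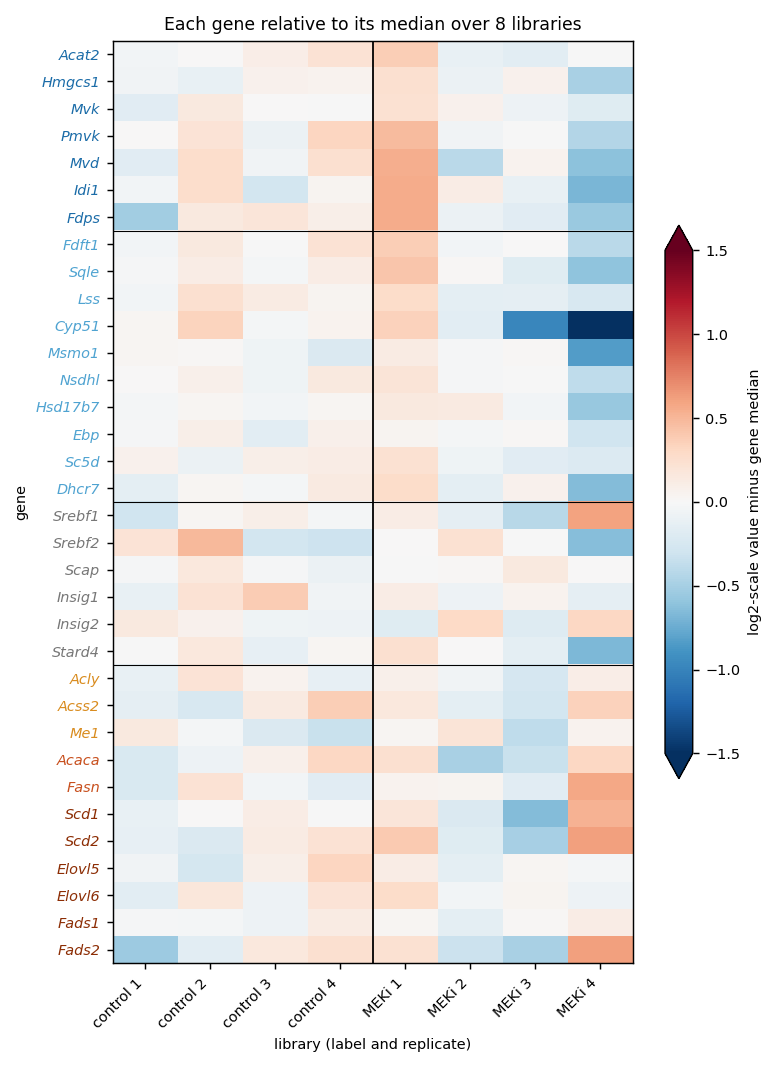
Each of the 34 genes (rows, ordered by role and divided by lines into sterol steps, control and transport, and fatty acid steps) in each library (columns), as the log2-scale value minus the median of that gene over the 8 libraries. In MEKi 4 the sterol rows are below and many fatty acid rows above their medians, and in MEKi 1 most sterol rows are above theirs.

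In the first part of the sterol arm, Hmgcs1 (chr13:119690379-119708260, + strand), the cytosolic HMG-CoA synthase of the mevalonate route, had 11.12, 11.06, 11.23 and 11.22 in the controls and 11.41, 11.08, 11.24 and 10.68 in the MEKi libraries. MEKi 1 was highest, MEKi 4 lowest, and the other 6 lay within the range between them (difference −0.05, SE 0.15, interval −0.38 to 0.27). Idi1, the isopentenyl diphosphate isomerase, had 9.20, 9.50, 8.97 and 9.27 in the controls and 9.79, 9.35, 9.13 and 8.55 in the MEKi libraries. Mvd, the mevalonate diphosphate decarboxylase, had 9.11, 9.55, 9.23 and 9.52, then 9.83, 8.88, 9.34 and 8.67. Idi1 and Mvd showed the same 2 extremes, again MEKi 1 and MEKi 4, and their ranges over 8 libraries were 1.24 and 1.17. Fdps ranged from 7.12 in MEKi 4 to 8.23 in MEKi 1, with control 1 at 7.16. The kinases Pmvk and Mvk ranged from 8.99 to 9.92 and from 8.45 to 8.86. Acat2, the thiolase that starts the pathway, ranged from 9.93 in MEKi 3 to 10.46 in MEKi 1, with MEKi 4 at 10.08 near the middle. The 7 genes together averaged 9.39 ± 0.13 in the controls and 9.33 ± 0.35 in the MEKi libraries (SD, n = 4 each).

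Cyp51 (chr5:4081145-4104746, − strand, GENCODE for GRCm38), which removes a methyl group from lanosterol and is the gene of the 34 that varied most, had 13.07, 13.37, 13.00 and 13.09 in the controls and 13.39, 12.88, 12.06 and 10.53 in the MEKi libraries. MEKi 1 was as high as the highest control, MEKi 2 just under the controls, MEKi 3 lower and MEKi 4 far lower, so the groups overlapped through MEKi 1 alone. The means were 13.13 ± 0.16 and 12.21 ± 1.25 (SD, n = 4 each), with a difference of −0.92 (SE 0.51, interval −2.05 to 0.21, unadjusted p = 0.0998 and adjusted p = 0.9996, limma). Per exon length the levels were 75.6, 86.9, 60.4 and 80.7 in the controls and 97.4, 65.9, 38.9 and 13.0 in the MEKi libraries. Its SD over the 8 libraries, 0.96 on the log2 scale, was larger than that of 99.2% of 613 genes whose mean lay within 0.5 of its own. Without MEKi 4 the range fell from 2.86 to 1.33 and the difference was −0.36.

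Msmo1, a methylsterol oxidase that acts later in the route than Cyp51, had 11.26, 11.26, 11.17 and 11.03 in the controls and 11.37, 11.22, 11.26 and 10.41 in the MEKi libraries. All but MEKi 4 lay within 0.34 of each other, and MEKi 4 lay below them. Sqle, the squalene epoxidase that is a control point of the later steps, had 10.97, 11.11, 10.96 and 11.10 in the controls and 11.40, 11.01, 10.81 and 10.39 in the MEKi libraries. Its controls sat between MEKi 1 above and MEKi 3 and MEKi 4 below (interval of the difference −0.55 to 0.28). Fdft1, the squalene synthase, ranged from 10.43 in MEKi 4 to 11.20 in MEKi 1, and Lss, which closes the ring to lanosterol, from 9.73 to 10.25 in the same libraries. Dhcr7, which makes cholesterol from 7-dehydrocholesterol, had 9.46, 9.63, 9.58 and 9.74 in the controls and 9.88, 9.46, 9.67 and 8.95 in the MEKi libraries. MEKi 4 lay below the other 7, which spanned 0.42. Hsd17b7 and Nsdhl, which act in removing the C4 methyl groups, were lowest in MEKi 4 at 8.26 and 9.24, and their other 7 values spanned 0.19 and 0.26. Sc5d and Ebp, the desaturase and isomerase of the sterol ring, moved least, with ranges of 0.43 and 0.39. The 10 genes from squalene on averaged 10.58 ± 0.06 in the controls and 10.39 ± 0.38 in the MEKi libraries (SD, n = 4 each), and all 10 differences were below 0, 3 of them without MEKi 4.

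The fatty acid arm averaged 11.54, 11.64, 11.71 and 11.78 in control 1 to 4 and 11.84, 11.54, 11.41 and 11.96 in MEKi 1 to 4. MEKi 4, lowest for the sterol arm, was here the highest, and MEKi 3 was the lowest. The labels differed by 0.02 (11.67 ± 0.10 and 11.69 ± 0.26, SD, n = 4 each), less than the spread within either. Of the 11 differences 6 were above 0 and 5 below, and without MEKi 4 3 were above and 8 below, with a mean of −0.07. MEKi 4 held the highest value of 5 genes (Acaca, Fasn, Scd1, Scd2 and Fads2) and the lowest of none. Of the 8 adipocyte markers measured, MEKi 4 was highest for 2, Plin4 and Lipe, chosen after their values were seen. They were at 10.69 (7.45 to 8.88 elsewhere) and 9.19 (8.49 to 8.64 elsewhere). Adipoq and Cfd had 2 and 0 reads in MEKi 4, and Fabp4 was 8.12 (7.81 to 9.97 elsewhere). The summed list averaged 7.61 to 7.79 in the controls and 7.41 to 7.86 in the MEKi libraries. Hepatocyte markers (4 of 5 measured) averaged 7.22 in MEKi 4 and 5.88 to 6.64 elsewhere. MEKi 4 was highest for 2 of them, Ttr (10.23) and Alb (137 reads), and lowest for Apoa2 (7 reads). Apoa1, with 12 reads in MEKi 4, was neither highest nor lowest there. The part of either cell type in the fatty acid values was not tested beyond a fit with the adipocyte score as a covariate, which gave a mean difference of 0.01. With the acinar marker score as a covariate the mean difference was 0.12.

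**Figure D4:**
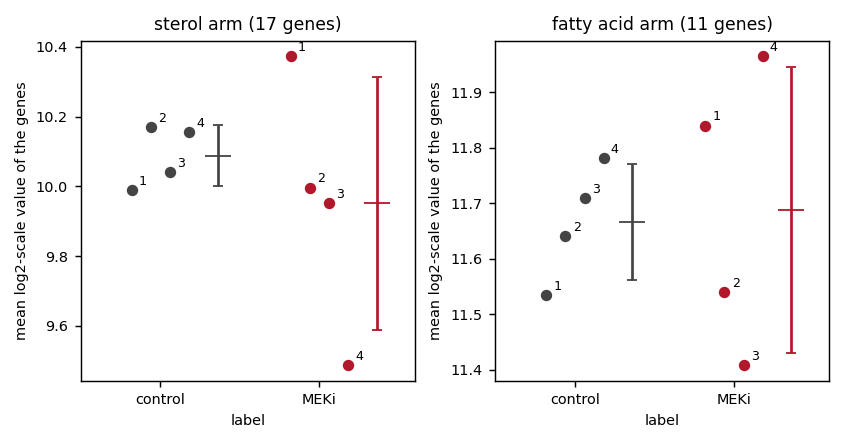
Mean log2-scale value of the 17 sterol and the 11 fatty acid genes in each library (points numbered by replicate), with the mean and SD of the 4 libraries of each label beside them. The axes do not start at 0. MEKi 4 is lowest in the sterol panel at 9.49 and highest in the fatty acid panel at 11.96, while MEKi 1 is high in both at 10.37 and 11.84.

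Fasn (chr11:120805846-120824547, − strand), the fatty acid synthase, had 12.48, 12.92, 12.66 and 12.53 in the controls and 12.75, 12.74, 12.53 and 13.29 in the MEKi libraries. MEKi 4 stood above all others, and the remaining 3 MEKi values lay within the range of the controls (difference 0.18, SE 0.17, interval −0.19 to 0.56, and 0.03 without MEKi 4). Acaca, the acetyl-CoA carboxylase that makes malonyl-CoA, had 10.29, 10.44, 10.60 and 10.82 in the controls and 10.75, 10.03, 10.18 and 10.83 in the MEKi libraries. Its MEKi values lay in a high pair and a low pair on either side of most controls.

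Scd2 (chr19:44293674-44306864, + strand), one of 2 stearoyl-CoA desaturases in the list, had 14.19, 14.10, 14.44 and 14.53 in the controls and 14.71, 14.14, 13.82 and 14.93 in the MEKi libraries. Scd1, the other, had 11.18, 11.30, 11.40 and 11.29 in the controls and 11.48, 11.07, 10.65 and 11.82 in the MEKi libraries. Both genes were highest in MEKi 4, then MEKi 1, and lowest in MEKi 3, with the controls between (intervals −0.45 to 0.61 for Scd2 and −0.52 to 0.45 for Scd1). Fads2, the desaturase that starts polyunsaturated fatty acid synthesis, had 10.32, 10.71, 11.02 and 11.10 in the controls and 11.10, 10.54, 10.38 and 11.49 in the MEKi libraries. Its lowest value was in control 1 and its highest in MEKi 4, and the groups overlapped (difference 0.09, SE 0.26). Fads1, which acts later in the same route, had the narrowest interval of the 34, −0.20 to 0.20, around a difference of 0.00. The elongases Elovl5 and Elovl6 ranged from 11.89 to 12.47 and from 10.38 to 10.81, with both Elovl5 extremes among the controls.

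Acly, which makes acetyl-CoA from citrate, had 12.91, 13.22, 13.07 and 12.89 in the controls and 13.09, 12.96, 12.77 and 13.11 in the MEKi libraries. Acss2, which makes it from acetate, had 8.64, 8.54, 8.91 and 9.14, then 8.94, 8.63, 8.501 and 9.13. Me1, a source of NADPH, had 12.82, 12.64, 12.45 and 12.34, then 12.70, 12.86, 12.28 and 12.72. In all 3 genes MEKi 3 was lowest, and the groups overlapped.

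The SD over the 8 libraries had a median of 0.23 for the sterol arm and 0.26 for the fatty acid arm, against 0.19 for the 10943 genes with a mean of at least 8. These medians include MEKi 4, the lowest library for 16 of the 17 sterol genes, and none without it is given. Hmgcs1 and Fasn were taken as index genes of the arms, and their values were correlated with those of the other members over the 8 libraries (65 pairs, exact permutation tests, Benjamini-Hochberg adjustment). None of the 65 pairs passed an adjusted p of 0.05, and with 4 libraries per label no correlation within a label was computed. Pearson's r with Hmgcs1 was above 0 for 16 of 16 sterol genes (median 0.79) and for 2 of 11 fatty acid genes (median −0.29). Without MEKi 4 it was above 0 for 16 of 16 and 8 of 11, with medians of 0.52 and 0.51. Fasn correlated above 0 with 0 of 16 sterol genes apart from Hmgcs1 (median −0.50), and without MEKi 4 with 15 of 16 (median 0.34). The opposite course of the 2 arms therefore rested on MEKi 4.

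The highest coefficient with Hmgcs1 was that of Dhcr7, r = 0.95 (two-sided exact permutation p = 0.00196, adjusted p = 0.0637) and rho = 0.76 (exact permutation p = 0.0368, adjusted p = 0.745). Without MEKi 1 and MEKi 4, the libraries farthest from the median of Hmgcs1, r was 0.60. Insig2 went the other way, with r = −0.83 (exact permutation p = 0.00129, adjusted p = 0.0637) and rho = −0.88 (exact permutation p = 0.00724, adjusted p = 0.348), and r was −0.84 without those libraries. Of the 33 coefficients with Hmgcs1, 17 changed sign without them. For Sqle r went from 0.85 to −0.46, for Msmo1 from 0.85 to −0.49 and for Cyp51 from 0.77 to −0.54. For Idi1 it went from 0.74 to −0.78 and for Stard4 from 0.80 to −0.76, so these positive coefficients rest on MEKi 1 and MEKi 4. In the libraries left Hmgcs1 spanned only 11.06 to 11.24, so the coefficients over them, and their signs, are poorly determined. Fasn had r = 0.87 with Srebf1 (exact permutation p = 0.00742, adjusted p = 0.150) and rho = 0.74 (exact permutation p = 0.0458, adjusted p = 0.745), and r was 0.52 without control 1 and MEKi 4. Fasn and Acly had r = 0.71 (exact permutation p = 0.0399, adjusted p = 0.190) and rho = 0.86 (exact permutation p = 0.0107, adjusted p = 0.348), and r was 0.89 without the same libraries. Of the 32 coefficients with Fasn, 22 changed sign without control 1 and MEKi 4. Fasn then spanned only 12.53 to 12.92, so the same limit holds.

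Dusp6 values fell into separate clusters, 3 libraries at 8.88 to 9.31 and 5 at 11.01 to 12.20 with a gap of 1.70, so no pooled correlation or test is given and the values are set side by side. In rising order of Dusp6 the libraries were MEKi 1, control 4, control 3, MEKi 4, MEKi 2, control 2, control 1 and MEKi 3. In that order the sterol arm averaged 10.37, 10.15, 10.04, 9.49, 10.00, 10.17, 9.99 and 9.95. Control 2, with high Dusp6, had the next highest sterol mean after MEKi 1, and MEKi 4, at an intermediate Dusp6 value, had the lowest. The fatty acid arm averaged 11.84, 11.78, 11.71, 11.96, 11.54, 11.64, 11.54 and 11.41 in the same order. The 4 libraries up to and including MEKi 4 in that order had the 4 highest fatty acid means, and they were 2 of each label, although the gap in Dusp6 places MEKi 4 with the higher 5. By gene, this held for 4 of the 11 fatty acid enzymes, Acss2, Acaca, Scd2 and Fads2, and for 0 of the 17 sterol enzymes, and the opposite order held for none of either arm. Of all 34 members 4 had this order (11.8%), against 7.38% of all genes tested, and 6.59% of all genes had the opposite order. This count was chosen after the values were seen and has no test. Of these 4 libraries control 3 and MEKi 4 had acinar scores of 16.23 and 11.02 and MEKi 1 and control 4 had 8.91 and 8.25, and the part of acinar tissue in the order was not tested.

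**Figure D5:**
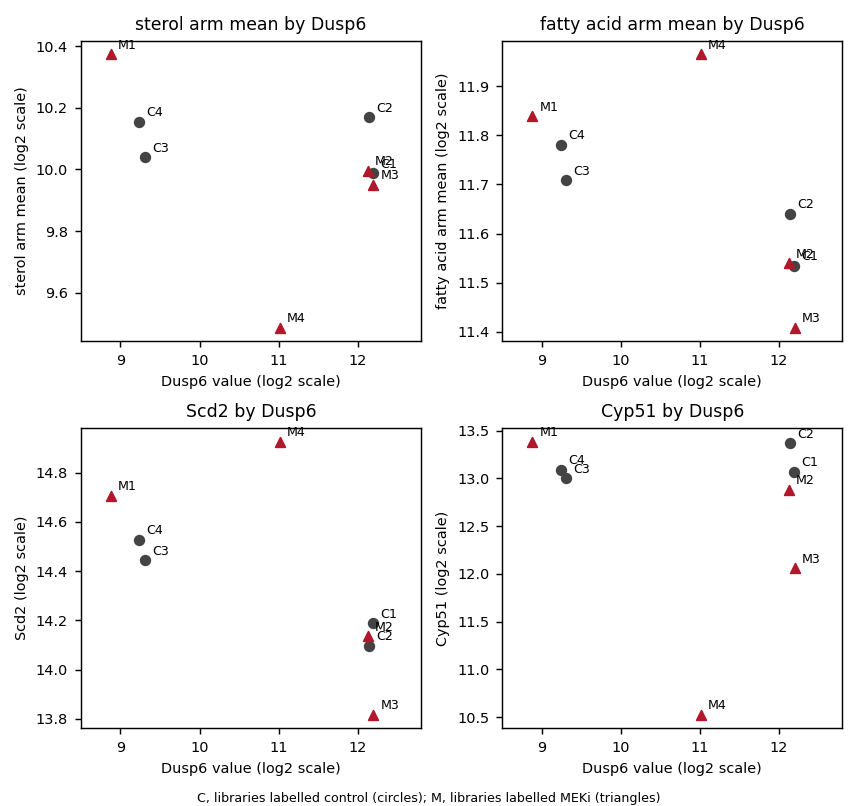
Sterol arm mean, fatty acid arm mean, Scd2 and Cyp51 (vertical axes) against Dusp6 (horizontal axes), all on the log2 scale, 1 point per library (circles C, labelled control; triangles M, labelled MEKi; the number is the replicate). The 4 libraries with Dusp6 at or below 11.01 have the 4 highest fatty acid means and Scd2 values, while the sterol mean and Cyp51 are lowest in MEKi 4 at a Dusp6 value of 11.01.

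Other genes of the pathway, from lists fixed for this work, likewise gave no call by limma. Of 4 further genes listed with sterol synthesis 2 differences were above 0 and 2 below. They were Tm7sf2, Lbr, Ggps1 and Acat1, and the last 2 are not steps of the sterol route. The smallest p was that of Lbr, a sterol reductase of the nuclear envelope (difference −0.15). The mean of the 4 in MEKi 4, 10.13, lay above those of the other libraries, 9.98 to 10.04. MEKi 4 was highest for Ggps1 (10.49) and Acat1 (10.73) and lowest for Lbr (10.26). Tm7sf2 in MEKi 4 (9.05) lay within the range of the other libraries. All 5 genes of sterol uptake and esterification had differences below 0, with Vldlr, a lipoprotein receptor, at −0.27, and without MEKi 4 2 of 5 were below. The 6 genes of LXR and efflux gave 3 and 3, with the cholesterol exporter Abca1 at −0.16. Of 12 further lipogenic genes 5 were above 0 and 7 below. Mlxipl, the carbohydrate-responsive factor ChREBP, had 7.28 ± 0.16 in the controls and 6.84 ± 0.37 in the MEKi libraries (SD, n = 4 each), a difference of −0.44 (unadjusted p = 0.0511 and adjusted p = 0.9996, limma).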

How the data were processed

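Total RNA from 8 tumour isografts was made into strand-specific libraries, per the labels' protocols. The submitters' processing notes name STAR 2.5.3a, DESeq2 1.18.1 and GRCm38. The deposited table holds log2-scale values to which the authors applied a variance-stabilising transformation and a filter, per its name. Neither the filter nor the counting step was described in the sources used here. Inverting the transformation gave whole reads (within 0.01) for 100% of values. On this scale differences of genes with few reads are understated.

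Of 19431 rows, 32 without a gene name (0.101% to 0.167% of a library's reads) were left out and 1 row was kept for each of 86 repeated symbols. In the closest pair of libraries, control 4 and MEKi 1, the median squared deviation between them was 4.37 times that of sampling noise, so all 8 were counted. limma 3.58.1 (R 4.3.3, trend, two-sided) was fitted to all 19129 genes without covariates, with Benjamini-Hochberg adjustment, and was tested on simulated data. Arm and list scores are mean log2-scale values and carry no p-value. Levels per exon length used the recovered reads and GENCODE exons. Copies were found with BLAST 2.17.0, correlations tested with scipy 1.17.1 and figures drawn with matplotlib 3.10.9 in Python 3.11.15.

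The members, lists and tests were chosen with earlier results of these data known. The text names all members, Dusp6 and, of each other list, genes called, otherwise that of lowest p. Other names complete the ERK output, hepatocyte or further sterol lists as described. The rest, Cdh1 among them, were chosen after their values were seen, whether or not this is said where they appear. Some genes and 1 list are not reported here. Alternatives covered normalization, filters, moderation, voom on recovered reads, covariates, the replicate block and each library left out. Leaving out control 2 and control 3 together, and the list counts without MEKi 4, were added after seeing the data. No batch or date was given.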

Additional observations from a re-analysis of the deposited data

Results flagged for a closer look

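In groups of 4 libraries, 70 were examined for a single value far from the others (both labels of 34 genes and Dusp6), and 3 were found, where chance gives about 1 in 20. Fdps in control 1 was low at 7.16, with the other controls between 7.76 and 7.86. Msmo1 in MEKi 4 was low at 10.41, with the other MEKi libraries between 11.22 and 11.37. Scap in MEKi 3 was high at 10.49, with the other MEKi libraries between 10.34 and 10.36.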

How the results depend on the processing

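No member was called under any of 20 alternatives, the smallest adjusted p being 0.984 (limma, without MEKi 1), and the mean difference of the sterol arm (−0.28 to 0.02) and of the fatty acid arm (−0.07 to 0.12) moved by less than 1 SD of the MEKi libraries. Deviations of same-numbered libraries from the mean of their label correlated at −0.33, 0.20, −0.46 and 0.02, too few values to settle whether replicate numbers pair the samples. The fit with the replicate block also called 0 members. Signs were not stable: 73 of the member values changed sign, those of 6 members in no alternative, and leaving out MEKi 4 changed the sign of 18 members, 11 of them in the sterol arm. The differences that changed sign when 1 library was left out ranged, lowest to highest, Acat2 −0.16 to 0.015, Hmgcs1 −0.16 to 0.085, Mvk −0.060 to 0.076, Pmvk −0.28 to 0.029, Idi1 −0.23 to 0.19, Fdps −0.25 to 0.13, Fdft1 −0.23 to 0.033, Sqle −0.30 to 0.040, Msmo1 −0.22 to 0.10, Nsdhl −0.18 to 0.013, Hsd17b7 −0.16 to 0.081, Ebp −0.11 to 0.017, Dhcr7 −0.24 to 0.065, Srebf1 −0.095 to 0.24, Srebf2 −0.24 to 0.049, Scap −0.0052 to 0.080, Insig2 −0.045 to 0.12, Stard4 −0.29 to 0.016, Acly −0.081 to 0.036, Acss2 −0.12 to 0.10, Acaca −0.21 to 0.053, Scd1 −0.23 to 0.16, Scd2 −0.095 to 0.28, Elovl5 −0.13 to 0.065, Elovl6 −0.065 to 0.068, Fads1 −0.032 to 0.053 and Fads2 −0.11 to 0.25. Differences that changed sign with limma voom on recovered reads were Mvk −0.016 and Acss2 0.040. Differences that changed sign with the acinar score as a covariate were Fdps 0.057, Insig1 0.012, Acly 0.11, Acss2 0.028, Acaca 0.0037, Scd1 0.20, Elovl6 −0.011 and Fads1 −0.026. Differences that changed sign with Dusp6 as a covariate were Fdps 0.012 and Acss2 0.034. Differences that changed sign without control 2 and control 3 were Fdps 0.15, Insig1 0.074, Acly 0.086, Scd1 0.022 and Fads1 −0.047. Differences that changed sign after quantile normalization were Acss2 0.0049 and Fads1 −0.015. The Acss2 difference that changed sign with library medians aligned was 0.016. Between 0 and 3 of the members passed an adjusted p of 0.05 for correlation with Hmgcs1 when 1 library was left out, the 3 without control 2. The cause of these changes was not tested. The 95% intervals are not adjusted for the number of genes and are no limit of detection.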

Other observations

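Genes of mitochondrial fatty acid oxidation, which breaks down what the fatty acid arm makes, gave no call by limma (0 of 7), with 4 differences above 0 and 3 below, and 1 above and 6 below without MEKi 4. Their mean was 10.65 in MEKi 4 and 10.00 to 10.38 in the other 7 libraries, and MEKi 4 held the highest value of 4 of the 7. Cpt1a, the carnitine palmitoyltransferase that admits fatty acids to mitochondria, had 11.32, 11.36, 11.37 and 11.53 in control 1 to 4 and 11.24, 11.38, 11.36 and 12.30 in MEKi 1 to 4. Acadm, the medium-chain dehydrogenase, had 11.64, 11.39, 11.89 and 11.94 in the controls and 11.88, 11.65, 11.45 and 12.58 in the MEKi libraries. Both were chosen after their values were seen. Ppara, a factor that drives this pathway, had the smallest p of the list (difference −0.28, SE 0.21).

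Other lists gave no call either. The genes with the smallest p were Phlda1 in the ERK output list (difference 0.43), Mki67 in the proliferation list (0.25), Adgre1 in the macrophage list (−0.42), Pdgfra in the fibroblast list (−0.63), Epcam in the epithelial list (−0.44), Fabp4 in the adipocyte list (−0.81), Apoa2 in the hepatocyte list and Prss2 in the acinar list (−4.62, unadjusted p = 0.0482, adjusted p = 0.9996, limma). Differences were below 0 for 6 of 6 macrophage, 5 of 5 fibroblast and 11 of 11 acinar markers, against 48.45% of all genes tested. Control 2 alone held the highest value of 5 of the 6 macrophage and 4 of the 5 fibroblast markers. Control 3 held the highest value of 11 of the 11 acinar markers.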
